A study of Mus musculus with 8 samples.

Results

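Voltage-gated potassium channels were represented by 40 protein-coding genes, of 21643 genes with a symbol in the transcript count table. Members were chosen by symbol alone: Kcn followed by a, b, c, d, f, g, h, q, s or v and a number. They filled 50 of the 28157 rows of the table, and where 1 of the 6 genes with several RefSeq transcripts had more than 1 row, the row with the highest total count stood for the gene. The 40 genes comprised 8 Kcna, 2 Kcnb, 4 Kcnc, 3 Kcnd, 1 Kcnf, 4 Kcng, 8 Kcnh, 5 Kcnq, 3 Kcns and 2 Kcnv genes.

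These channels open when the membrane is depolarised and let potassium leave the cell, which ends the action potential, sets the interval to the next one and limits the return of signals into dendrites. A channel is a ring of alpha subunits. Kcna (Kv1), Kcnb (Kv2), Kcnc (Kv3), Kcnd (Kv4), Kcnh (the EAG, ERG and ELK channels) and Kcnq (Kv7) subunits form channels of their own, whereas Kcnf, Kcng, Kcns and Kcnv subunits are called silent because they conduct only when they assemble with others, chiefly Kv2. In hippocampus and neocortex, Kv1 is known for setting axonal threshold, Kv3 for rapid repolarisation in fast-spiking interneurons, Kv4 for the dendritic A-type current and Kv7 for the M-current.

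The study measured polyribosome-associated RNA in C57BL/6 mice aged 7 to 9 weeks, from the frontal cortex and the hippocampus, with 200 ng of RNA per sample. Conditioned mice had undergone contextual fear conditioning, the pairing of a chamber with foot shock, and control mice had met the context alone. Tissue was taken 1 h or 6 h later, which gave 8 libraries, 1 for each combination of tissue, training and time, and no combination had a replicate. No allele, Cre driver or transgene is named in the labels, and they do not give the animals behind each library, the hour of day, or whether 1 mouse gave both tissues. The series text speaks of 8 mice and, like the protocol, of the prefrontal cortex alone, whereas 4 samples are labelled hippocampus; the sample labels were followed, and they are checked against tissue markers with the results. Nothing in them says that libraries came from separate animals. With no replicates, p-values below measure how these libraries spread around added effects of condition and tissue, a spread that may be technical. A change that differs between the tissues counts as spread in that fit. No total RNA library was analysed here, so the amount of a message and its share on polyribosomes cannot be told apart. In bulk tissue, fewer cells of a type and less RNA per cell cannot be told apart either.

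All 40 members carry the potassium selectivity filter, and the sequence that encodes it shows how near each message is to its relatives. In the GENCODE M21 transcript (GRCm38) matched to each member's RefSeq identifier, the filter signature was found exactly 1 time in the coding sequence of 40 of 40 members. The windows below give 24 bases before the filter, the 15 bases of the filter codons in capitals, and 24 bases after, 5′ to 3′ on the coding strand. They are those of 4 of the 5 members on which the tissue comparison turns, all but Kcng2:
Kcnh1: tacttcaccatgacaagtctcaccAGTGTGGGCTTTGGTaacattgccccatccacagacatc
Kcnh4: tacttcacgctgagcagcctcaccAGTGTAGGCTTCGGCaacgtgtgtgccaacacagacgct
Kcnh5: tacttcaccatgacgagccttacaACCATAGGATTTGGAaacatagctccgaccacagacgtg
Kcnf1: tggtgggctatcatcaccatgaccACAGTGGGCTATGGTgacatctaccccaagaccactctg

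The next windows belong to the members on which the comparison of times turns, with Kcnh6 beside its relatives Kcnh2 and Kcnh7, the 3 genes of the ERG group:
Kcna1: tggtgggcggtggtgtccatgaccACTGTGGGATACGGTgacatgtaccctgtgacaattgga
Kcnc4: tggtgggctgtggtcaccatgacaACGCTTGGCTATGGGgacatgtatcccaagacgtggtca
Kcnh2: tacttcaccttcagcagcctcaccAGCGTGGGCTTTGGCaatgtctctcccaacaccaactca
Kcnh6: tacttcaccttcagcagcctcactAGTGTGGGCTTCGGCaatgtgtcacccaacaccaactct
Kcnh7: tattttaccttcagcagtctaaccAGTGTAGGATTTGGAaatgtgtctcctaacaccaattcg
Kcnv1: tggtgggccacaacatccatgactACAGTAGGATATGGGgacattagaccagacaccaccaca

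Over these 63 bases Kcnh2 shared 57 with Kcnh6 and 51 with Kcnh7. The ERG genes also differed in base composition: G or C filled 72.8% of the last codon positions in Kcnh2 and in Kcnh6, and 47.0% in Kcnh7. Exact runs of 30 or more bases were shared by 12 of 780 pairs of member transcripts, and runs of 50 or more by 4 pairs. The coding runs included 91 bases between Kcna5 and Kcna6 and 55 between Kcna10 and Kcna3. How reads that match more than 1 transcript were counted is not stated in the labels, so the split of reads within these pairs is uncertain.

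A pair of upstream regions is shown for Kcnh5 and Kcnf1, the members with the smallest adjusted p between the tissues. Each is the 250 bases before the RefSeq transcription start on the minus strand of chromosome 12 (GRCm38.p6), Kcnh5 at chr12:75177333-75177582 and Kcnf1 at chr12:17176889-17177138, printed 5′ to 3′ with each CG dinucleotide in capitals:
Kcnh5: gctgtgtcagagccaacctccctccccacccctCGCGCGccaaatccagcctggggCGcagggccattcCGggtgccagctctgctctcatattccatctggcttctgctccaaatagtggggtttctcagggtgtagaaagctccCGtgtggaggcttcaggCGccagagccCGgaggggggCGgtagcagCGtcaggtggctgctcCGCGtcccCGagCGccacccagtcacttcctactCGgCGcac
Kcnf1: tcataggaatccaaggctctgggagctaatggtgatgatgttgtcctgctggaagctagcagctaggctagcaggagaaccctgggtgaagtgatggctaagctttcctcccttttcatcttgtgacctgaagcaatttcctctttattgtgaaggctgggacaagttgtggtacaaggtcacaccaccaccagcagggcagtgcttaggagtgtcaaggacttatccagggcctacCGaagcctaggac

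The Kcnh5 region held 16 CG dinucleotides and 65.6% G and C, and the Kcnf1 region 1 and 51.2%. The promoter table held 30 promoters of 25 members. Their median GC content was 62.6%, against 52.4% over all 32851 promoters of that length, and their median number of CG dinucleotides was 14, against 6. The letters TATAAA were in 0% of member promoters and 12.4% of all. TGACGTCA, the full cAMP response element, was in 0% and 1.55%, and GCGGGGGCG, the core recognised by EGR factors, in 3.33% and 2.57%. Both strands were searched, the motifs do not overlap one another in sequence, and a match is a description of letters and not a site.

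The libraries held 2370973 to 5296986 counts, and the family took 0.115% to 0.171% of them. The 2 libraries labelled conditioned 1 h stood apart. Over 11338 genes their counts differed by 1.06 times the variance of counting noise, with 0 genes called and 4.87% at an unadjusted p under 0.05. The next closest of 28 library pairs had a ratio of 4.86. Over 33 members the ratio was 0.877, with 2 members at an unadjusted p under 0.05. Both libraries held markers of both tissues at levels between those of the 1 h controls. They were set aside, and the comparisons rest on the other 6 libraries, 3 per tissue. Fits that take all 8 libraries as labelled, or the pair summed into 1, were run as alternatives only. The library labelled hippocampus control 6 h also stood apart: it was the smallest, 8.01% of its counts came from Kif5c against 0.038% to 0.545% elsewhere, and its scaling factor was 0.762 against 0.990 to 1.097. Levels are CPM, counts scaled to the size of the library, after scaling by trimmed mean of M values (TMM).

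Kcna1, the Kv1.1 subunit of axons and their terminals, had the highest level per kilobase of transcript of the 40 genes. Its level ranged from 25.6 to 71.0 CPM per kilobase over the 8 libraries, with a mean of 43.3. Its range did not overlap that of Kcnc2, the Kv3.2 subunit of fast-spiking cells, at 16.2 CPM per kilobase (range 11.0 to 22.7). Kcnc2 did not differ from Kcnc1, at 16.05, beyond that spread.

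The leading genes of several other subfamilies stood close together. Kcnd2, the Kv4.2 subunit of the dendritic A-type current, had a mean of 12.7 CPM per kilobase (7.77 to 22.0). Kcnv1, a silent subunit that joins Kv2 channels, had 11.7 (3.81 to 23.7), and Kcnh1, the EAG1 channel, 11.7 (5.95 to 15.9). Kcnf1, the only Kcnf gene, had 9.06 (1.62 to 15.0). The ranges of these 4 genes overlapped one another, so their order was not set apart from the spread between libraries. Kcng1, a silent subunit, had 4.18 CPM per kilobase (1.19 to 6.04) and Kcns3, another, 1.78 (0.892 to 3.08).

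By subfamily, Kcna genes held 26.4% of the family's mean CPM, Kcnc genes 18.1%, Kcnh genes 16.1%, Kcnq genes 12.3%, Kcnd genes 9.36% and Kcnb genes 8.39%. The silent subunits held less: 3.41% for Kcnv, 2.87% for Kcnf, 1.99% for Kcng and 1.10% for Kcns. These shares are not per kilobase, so a long transcript counts for more in them.

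Of the 40 members, 5 had under 10 counts in all 8 libraries together. Kcna7 and Kcnv2 had 0 counts, which allows a level of up to 0.0902 CPM over the pooled libraries, counting error only. Kcna10, a subunit best known outside the brain, had 4 counts, Kcnh8 had 6 and Kcnq1, the cardiac and epithelial Kv7 subunit, had 7. Neither these genes nor Kcnh6, which had 53 counts, passed the filter on low counts, and 33 members were tested.

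**Figure D1:**
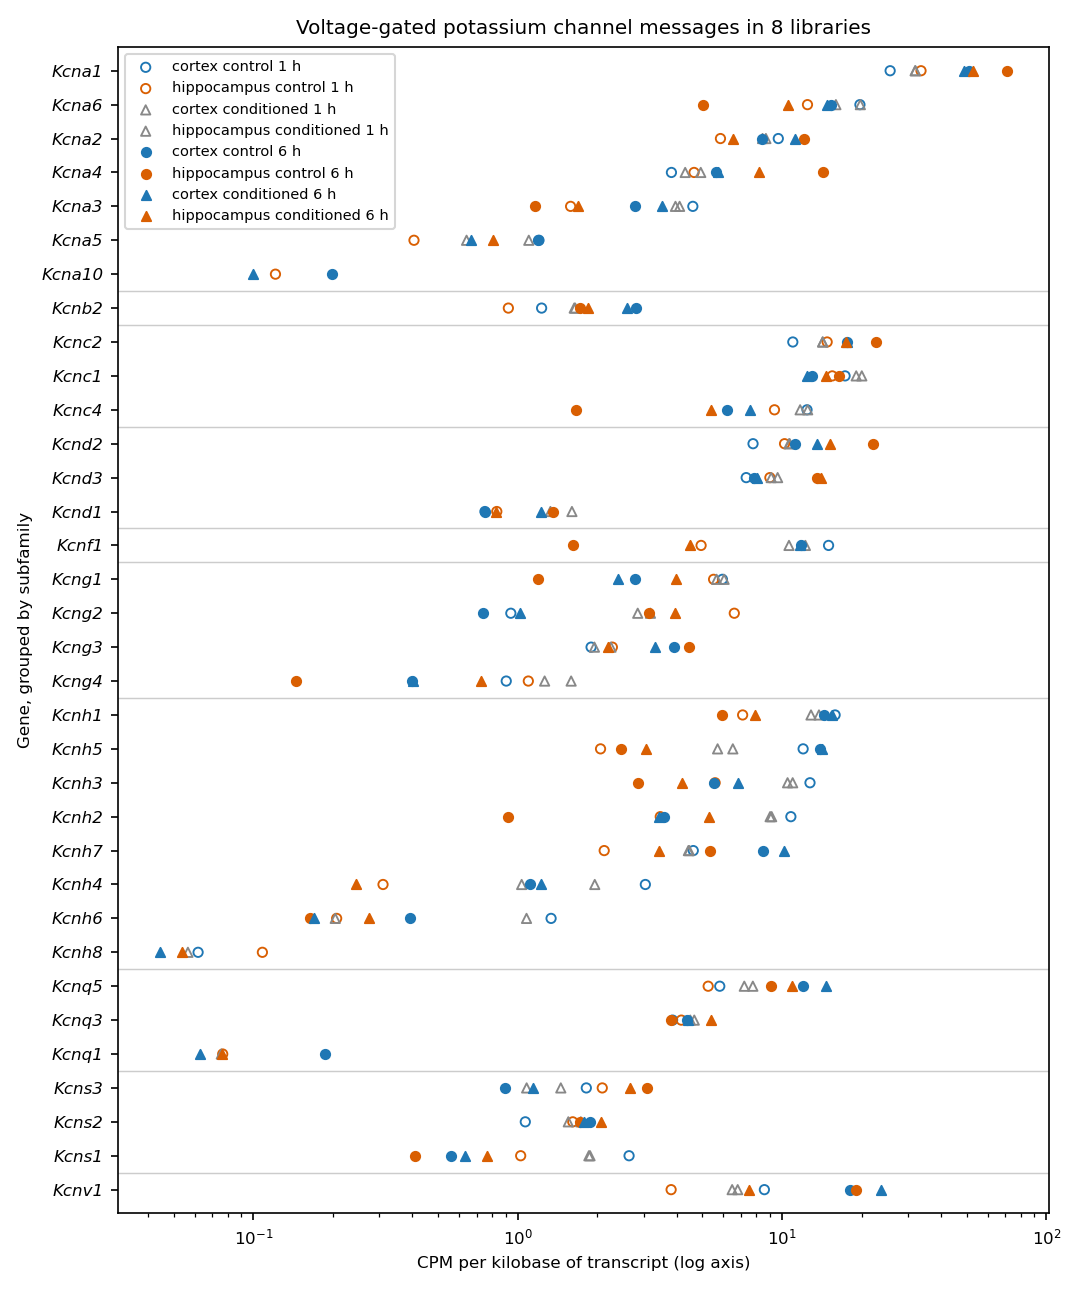
Level of each voltage-gated potassium channel gene in CPM per kilobase of transcript (log axis), 1 symbol per library, genes grouped by subfamily and ordered by mean; 34 genes are drawn, zeros cannot be shown on this axis, and Kcna7 and Kcnv2, with 0 counts, are left out. Kcna1 lies farthest to the right, and the orange hippocampal symbols lie to the left of the blue cortical ones for Kcnh1, Kcnh4, Kcnh5 and Kcnf1.

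Between the tissues, 3 genes of the Kcnh subfamily and the silent subunit Kcnf1 were lower in hippocampus than in cortex, and the silent subunit Kcng2 was higher. These were 5 of the 33 tested members, against 3.72% of all 16123 rows tested (edgeR quasi-likelihood test, adjusted p under 0.05 over all rows). For the 4 lower members the background was 2.0%, and for the 1 higher member 1.72%. Fold differences ran from 2.21 for Kcnh1 to 8.55 for Kcnh4.

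Kcnh5, the EAG2 channel, stood at 48.8 CPM in the cortex control 1 h library, 56.3 in cortex control 6 h and 57.6 in cortex conditioned 6 h. In hippocampus the same 3 conditions gave 8.35, 9.96 and 12.4 CPM. All 3 hippocampal libraries lay below all 3 cortical ones, with 108 counts against 784, and Kcnh5 was 5.38-fold lower in hippocampus (log2 difference -2.43, SE 0.36, edgeR adjusted p = 0.0002).

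Kcnh4, an ELK channel, was the scarcest of the 5, with 11.4, 4.16 and 4.58 CPM in cortex and 1.16, 0 and 0.920 CPM in hippocampus, conditions in the same order. Its 0 in hippocampus control 6 h allows up to 1.66 CPM. The tissues did not overlap, but the difference of -3.10 on the log2 scale (SE 0.62, edgeR adjusted p = 0.0038) rested on 89 counts in cortex and 9 in hippocampus.

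Kcnh1, the EAG1 channel, had 114, 103 and 110.2 CPM in cortex and 50.8, 42.6 and 56.8 CPM in hippocampus. The groups did not overlap, and the log2 difference was -1.15 (SE 0.32, edgeR adjusted p = 0.0435), from 1553 and 543 counts. Its 2 rows in the table, for 2 RefSeq transcripts, held identical counts in each library.

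Kcnf1 encodes Kv5.1, a silent partner of Kv2. It had 71.8, 56.7 and 56.1 CPM in cortex and 23.7, 7.75 and 21.4 CPM in hippocampus, again without overlap (log2 difference -1.90, SE 0.37, edgeR adjusted p = 0.0030). The lowest value was that of hippocampus control 6 h, with 14 counts.

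Kcng2, the silent subunit Kv6.2, went the other way. It had 2.65, 2.08 and 2.86 CPM in cortex and 18.6, 8.85 and 11.0 CPM in hippocampus, and each hippocampal library lay above each cortical one. The log2 difference was 2.25 (SE 0.45, edgeR adjusted p = 0.0035), from 36 counts in cortex and 144 in hippocampus.

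**Figure D2:**
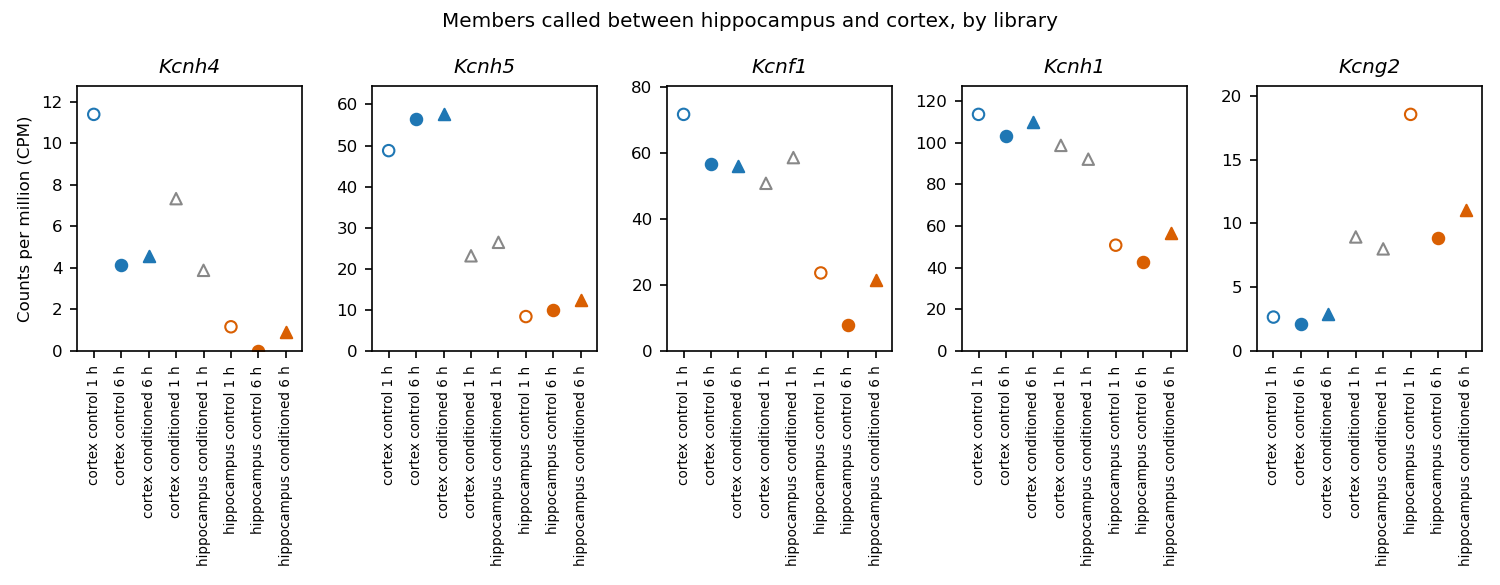
CPM of the 5 members called between hippocampus and cortex, 1 symbol per library: blue, cortex; orange, hippocampus; grey, the 2 libraries labelled conditioned 1 h, which are not in the 6-library fit; open, 1 h; filled, 6 h; circles, control; triangles, conditioned. The grey symbols of all 5 genes lie between the open blue and the open orange circle, and the blue and orange symbols do not overlap.

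The subfamilies differed in direction. All 6 tested Kcnh genes had a log2 difference below 0, from -3.10 to -0.91, with 3 of them called. Those not called were Kcnh2 and Kcnh7 of the ERG group, at -0.91 and -1.13, and the ELK channel Kcnh3, at -0.97. Summed over the 8 genes, Kcnh messages came to 333, 313 and 348 CPM in the cortex libraries and 125, 139 and 155 CPM in the hippocampal ones. Kcnb2, a Kv2 subunit, was at -0.55 and was not called. The 3 Kcnd genes were above 0, from 0.09 to 0.61, and none was called. Kcna, Kcnc, Kcng, Kcnq and Kcns genes were split. Over the 33 members the median log2 difference was -0.34, against 0.00 over all rows, with 14 members above 0 and 19 below.

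Counted without a test, the CPM ranges of the tissues did not overlap for 10 of the 34 members with at least 10 counts in these 6 libraries. In 7 of them, among which were Kcna3, Kcna6, Kcnf1, Kcnh1, Kcnh4 and Kcnh5, each hippocampal library was lower, against 6.69% of 18732 rows. In 3, Kcnd3, Kcng2 and Kcns3, each was higher, against 7.27%. Kcnd3, the Kv4.3 subunit, had 52.5, 56.3 and 57.6 CPM in cortex and 64.5, 96.8 and 101 CPM in hippocampus.

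The tissue labels of these 6 libraries were checked against marker lists. The summed level of 11 hippocampal excitatory markers was 189 to 259 CPM in cortex and 750 to 1139 CPM in hippocampus, and 10 of the 11 were called higher in hippocampus. The 9 cortical excitatory markers gave 1382 to 1800 CPM in cortex and 331 to 700 CPM in hippocampus. Of these 9, 6 were called lower in hippocampus, and 1, Fezf2 (log2 difference 0.56), was above 0 and not called. The sums of other lists differed between the tissues too. The 9 striatal markers gave 272 to 521 CPM in cortex and 132 to 143 CPM in hippocampus, with 6 of 9 called lower in hippocampus. The 7 oligodendrocyte markers gave 686 to 865 CPM in cortex and 1094 to 1434 CPM in hippocampus. All 7 were above 0, and only 1, Mal (log2 difference 1.25), was called. The 8 interneuron markers overlapped, at 574 to 824 and 669 to 836 CPM, and so did the 6 astrocyte markers, at 794 to 1276 and 888 to 1522 CPM. The 6 microglial markers summed to 28.8 to 34.4 and 35.0 to 41.2 CPM, the 6 endothelial and mural ones to 7.00 to 11.4 and 9.40 to 13.9 CPM, and the 4 thalamic ones to 40.5 to 55.3 and 51.5 to 89.1 CPM. Of the thalamic markers, Lhx9 (log2 difference 4.92) and Prkcd (1.88) were called higher in hippocampus. Rora (-0.53) and Tcf7l2 (-0.07) were not called. In none of these lists was any gene at 0 in all 6 libraries. The part of cell makeup and of dissection in the differences above was not tested.

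Leaving out the cortex control 1 h or the hippocampus control 1 h library left Kcnh5 and Kcnf1 as the only members called, against 1.3% and 1.2% of rows. With the trend of counts with GC content and length removed from each library, 10 members were called (6.93% of rows): the same 5 and others, among them Kcnh7 at -1.45 and Kcnv1 at -1.15, both lower in hippocampus.

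Between 1 h and 6 h after exposure to the context alone, the silent subunit Kcnv1, the ERG channel Kcnh7 and the Kv1 subunit Kcna1 rose, and the Kv3 subunit Kcnc4 and the ERG channel Kcnh2 fell. These were again 5 of 33 members, here against 23.2% of all rows tested (12.9% higher at 6 h and 10.3% lower), so the members' share was below the background. Fold changes ran from 2.15 to 3.53.

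Kcnv1 stood at 37.6 CPM in cortex and 16.7 CPM in hippocampus at 1 h, and at 79.4 and 83.5 CPM at 6 h. Both tissues were higher at 6 h, hippocampus by more, and the log2 change was 1.82 (SE 0.45, edgeR adjusted p = 0.0094). Kcnh7, the ERG3 channel, went from 61.5 to 113 CPM in cortex and from 28.3 to 71.4 CPM in hippocampus (log2 change 1.18, SE 0.40, edgeR adjusted p = 0.0394). Kcna1 went from 103 to 206 CPM in cortex and from 135 to 286 CPM in hippocampus (log2 change 1.10, SE 0.38, edgeR adjusted p = 0.0422). For Kcna1 both 6 h controls lay above both 1 h controls, and the 2 conditioned 6 h libraries, at 197 and 212 CPM, did too. The conditioned 6 h libraries of cortex and hippocampus gave 104 and 32.9 CPM for Kcnv1, and 135 and 45.8 CPM for Kcnh7. For both genes the hippocampal value lay above the hippocampal 1 h control but below the cortical one.

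Kcnc4, the Kv3.4 subunit of fast-inactivating currents, went from 45.6 to 22.7 CPM in cortex and from 34.3 to 6.09 CPM in hippocampus (log2 change -1.52, SE 0.46, edgeR adjusted p = 0.0244). Kcnh2, the ERG1 channel, went from 45.6 to 15.1 CPM in cortex and from 14.6 to 3.87 CPM in hippocampus (log2 change -1.54, SE 0.54, edgeR adjusted p = 0.0431). The last of these levels rested on 7 counts. For Kcnh2 the time points overlapped between tissues, since cortex at 6 h was above hippocampus at 1 h. The ERG pair Kcnh2 and Kcnh7, whose filter windows are shown above, thus changed in opposite directions as counted. With the trend with base composition described next removed, both values were below 0 and neither gene was called.

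**Figure D3:**
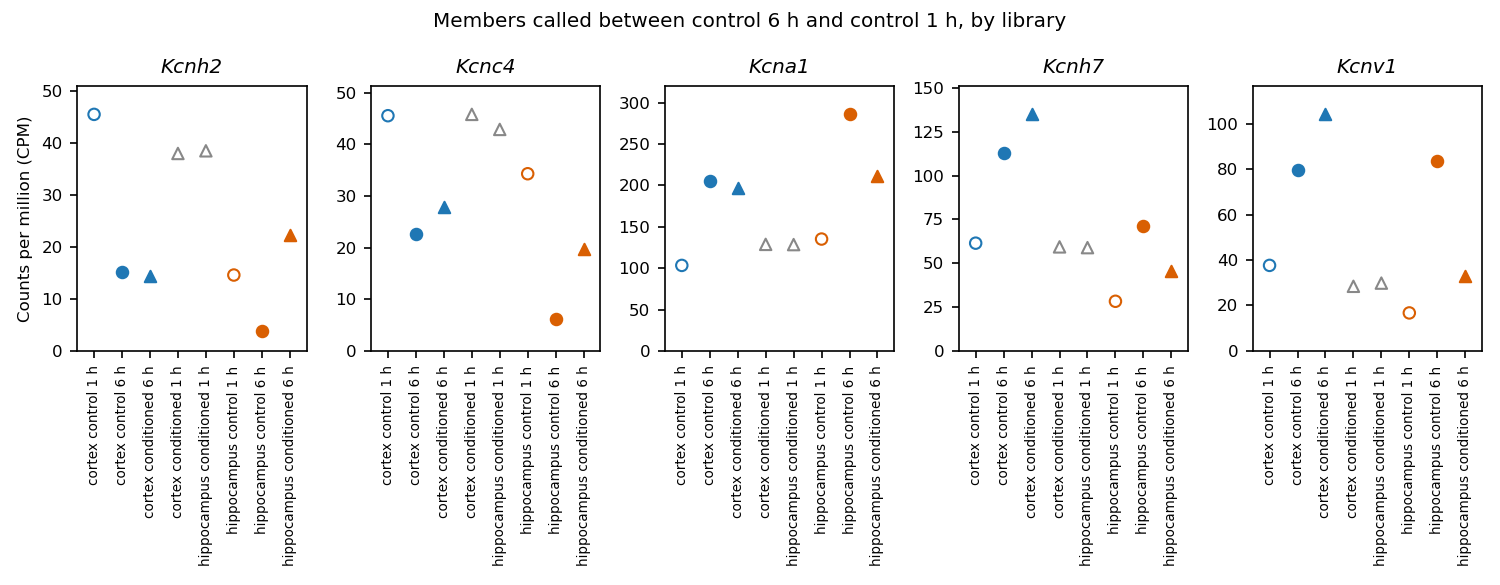
CPM of the 5 members called between the 6 h and the 1 h controls, 1 symbol per library, coded as in the plot of the tissue members (blue cortex, orange hippocampus, grey the unassigned conditioned 1 h pair, open 1 h, filled 6 h, triangles conditioned). Within each tissue the filled circle lies below the open one for Kcnh2 and Kcnc4 and above it for Kcna1, Kcnh7 and Kcnv1.

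The direction of the change over time went with the base composition of the message. Of the 13 tested members whose transcript had under 50% G and C, 12 were above 0, with a median log2 change of 0.71, and of the 20 with 50% or more, 3 were above 0, with a median of -0.72. Across the 33 members Pearson's r between GC content and log2 change was -0.856 and Spearman's rho -0.848, values that describe genes measured in the same libraries. Neither these values nor the split above are set beside those of all rows, so they mark no trait particular to this family. The called members ran in GC content from 39.6% in Kcnh7 and 41.0% in Kcnv1 to 59.6% in Kcnc4 and 61.3% in Kcnh2. Kcna1, at 50.1%, lay in the middle. The libraries differed in the same respect: of the variance across genes in a library's deviation from the 6-library mean of log2 levels, GC content and length accounted for 50.0% and 43.5% in the cortex and hippocampus 1 h controls, 6.99% in cortex control 6 h, 45.5% in hippocampus control 6 h, and 10.2% and 3.79% in the conditioned 6 h libraries.

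With that trend removed from each library, Pearson's r across the members was 0.093. The SD of the members' changes went from 0.992 to 0.562. The trend was fitted over genes that included the members and then subtracted. A weaker correlation with GC content and a smaller spread therefore follow from the step itself and are no separate result. Kcna1 was the only member still called, at 1.01 (SE 0.31, edgeR adjusted p = 0.0426, 7.34% of rows called), and its adjusted p ranged from 0.0042 to 0.396 over the 15 alternatives run. Kcnv1 was at 0.54, Kcnc4 at -0.43 and Kcnh2 at -0.41, none of them called. Kcnh7 changed sign, to -0.52 (SE 0.32, edgeR adjusted p = 0.349), and was not called either.

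**Figure D4:**
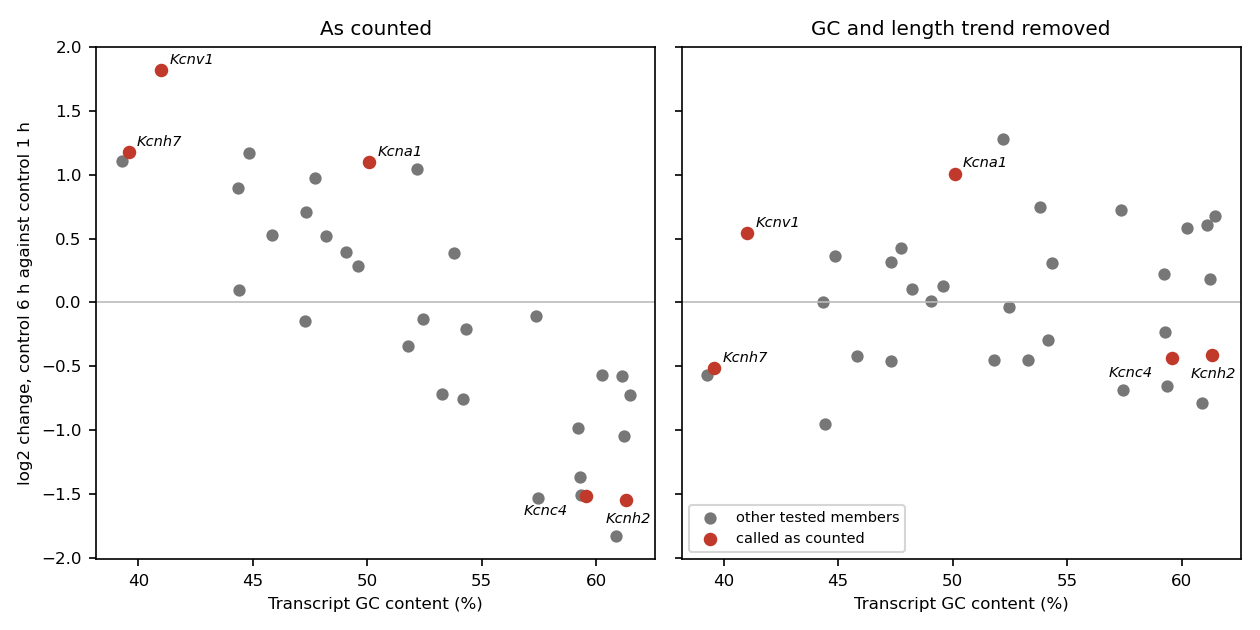
log2 change from control 1 h to control 6 h against the GC content of the transcript (percent) for the 33 tested members, 1 point per gene, red for the 5 called; left, as counted; right, with the GC and length trend of each library removed. The downward slope on the left (Pearson's r -0.856) is absent on the right (0.093), where the trend with GC content was subtracted. On the right Kcna1 stays above 1 and Kcnh7 lies below 0.

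The calls over time depended on which libraries were fitted. A fit without 1 library kept 1 residual degree of freedom, so a lost call cannot be put down to the library left out. The first library left out was hippocampus control 6 h. Without it, 0 members were called over time by edgeR, against 6.71% of rows. Kcnv1 was then at 1.01 (edgeR adjusted p = 0.139), Kcna1 at 0.98 (0.0938), Kcnh7 at 0.82, Kcnc4 at -0.97 and Kcnh2 at -1.09. Leaving out either 1 h control also gave 0 calls (2.45% of rows without the cortical one, 0.0% without the hippocampal one), and leaving out cortex control 6 h gave 12 (42.1% of rows). With upper-quartile scaling, which moved the median change of all rows from -0.03 to -0.17, Kcnc4 and Kcnv1 were called (17.0% of rows). Within a single tissue, counting intervals of the log2 ratio of control 6 h to control 1 h excluded 0 for all 5 members in both tissues, for Kcna1, 0.99 in cortex (95% interval 0.83 to 1.17) and 1.08 in hippocampus (0.91 to 1.25). These are the libraries from which the 5 were called, and the intervals excluded 0 for 58.0% of 12522 genes in cortex and 65.7% of 11695 in hippocampus, so they add no support to the calls.

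At 6 h after training, no member passed the test between conditioned and control libraries. The test was of a change common to both tissues, and a change that differed between them entered its error. edgeR called 0 of 33 members and 0.0% of all 16123 rows. At an unadjusted p under 0.05 it counted 0 members and 666 rows, and DESeq2 called 0 members as well. The log2 changes of the members ran from -0.61 to 1.17, with SE of 0.38 to 0.85 and a median SE of 0.43. The median over the members was 0.23, against 0.02 over all rows, with 23 above 0 and 10 below.

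The largest value was that of Kcnh2, 1.17 (SE 0.57, edgeR adjusted p = 0.911). Its levels were 15.1 CPM in cortex control and 14.5 in cortex conditioned, and 3.87 in hippocampus control and 22.3 in hippocampus conditioned. The cortical libraries lay close together, and in hippocampus 97 counts stood against 7, a log2 ratio of 2.53 (95% counting interval 1.43 to 3.88). Kcnc4 followed at 0.81 (SE 0.46), with 22.7 and 27.8 CPM in cortex and 6.09 and 19.8 CPM in hippocampus. Both genes had their lowest level of all 8 libraries in hippocampus control 6 h, the library with the excess of Kif5c.

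In cortex alone, the median log2 ratio of conditioned to control over 34 members was 0.03, against 0.01 over 12631 genes. Counting intervals lay above 0 for 5 members, against 11.4% of genes, and below 0 for 0, against 9.94%. The 5 were Kcna2 at 0.41, Kcnv1 at 0.39, Kcnq5 at 0.29, Kcnd2 at 0.28 and Kcnh7 at 0.26. In hippocampus the median over 31 members was 0.32, against 0.08 over 11571 genes, and intervals lay above 0 for 10, against 26.5% of genes, and below 0 for 8, against 26.1%. In both tissues the members' counts were near these shares of all genes or below them, apart from 10 of 31 above 0 in hippocampus. Each ratio compares 2 libraries and not the conditions, and the intervals cover counting error only, because PCR copies without molecular identifiers are counted as if each were a molecule.

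**Figure D5:**
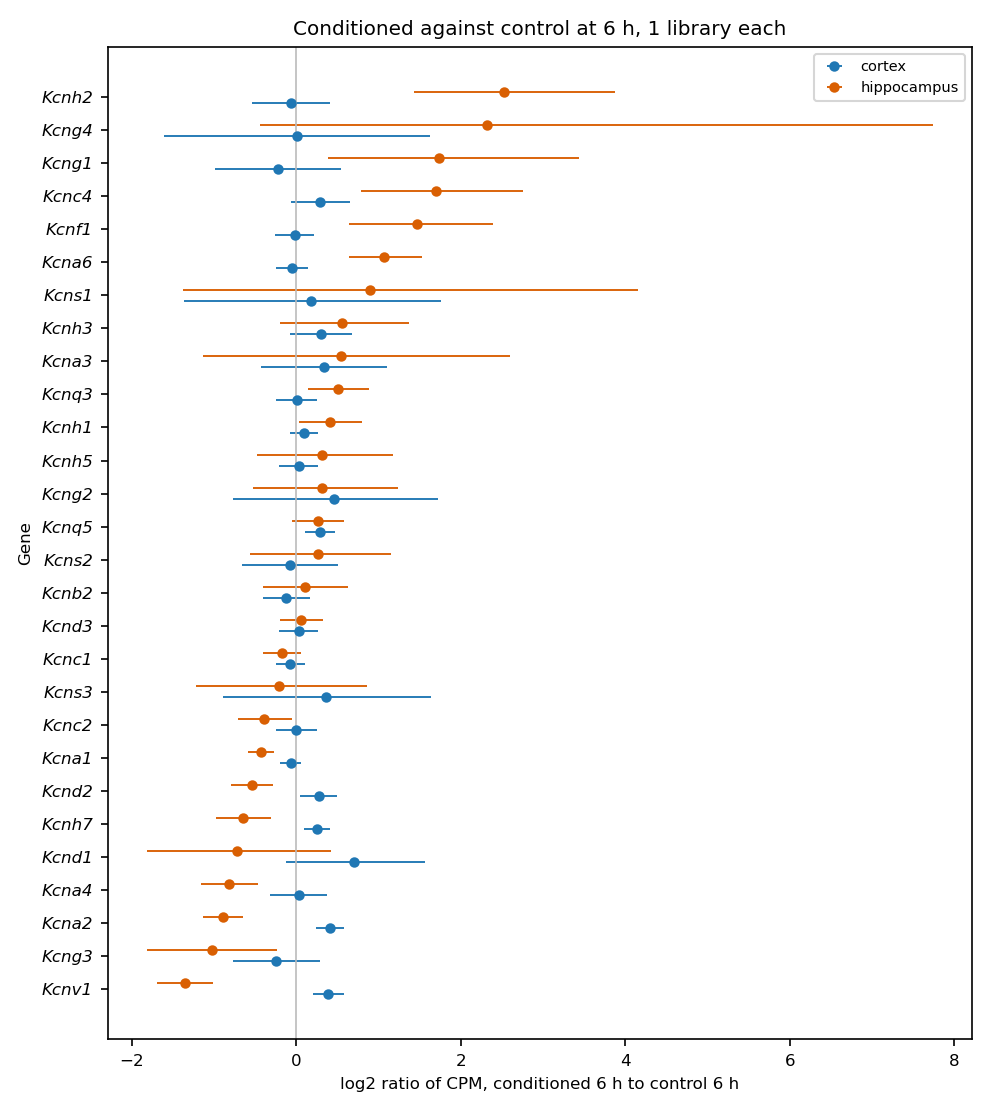
log2 ratio of CPM, conditioned 6 h to control 6 h, for 28 members with at least 10 counts in both tissues' pairs of libraries; points are ratios of 1 library to 1 library (blue cortex, orange hippocampus) and bars are 95% exact binomial counting intervals. Cortical ratios lie near 0, with a median of 0.03, while hippocampal ratios spread from -1.34 for Kcnv1 to 2.53 for Kcnh2.

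Leaving out cortex control 6 h, which leaves hippocampus control 6 h as the only 6 h control, gave 2 calls against 12.5% of rows: Kcnh2 at 1.99 (SE 0.67, edgeR adjusted p = 0.0332) and Kcnv1 at -1.27 (SE 0.45, edgeR adjusted p = 0.0401). Over the 15 alternatives run, the adjusted p went up to 1 for both. Without hippocampus control 6 h the values were 0.59 for Kcnh2 and 0.27 for Kcnv1, and 0 members and 0.0% of rows were called.

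In the 2 libraries labelled conditioned 1 h, whose tissue could not be told, the members gave levels only. Kcnh5 stood at 23.1 and 26.4 CPM, Kcnf1 at 50.9 and 58.7, Kcnh1 at 98.8 and 92.1, Kcnh4 at 7.33 and 3.88 and Kcng2 at 8.94 and 8.00. All 5 lay between the cortex and the hippocampus 1 h control in both libraries. So did 18 of the 35 members with at least 10 counts, while 8 did in 1 of the libraries and 9 in neither. Conditioning at 1 h therefore has no comparison here.

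Among genes with several transcripts, Kcnd3 showed a ratio of rows that moved between libraries. The shorter row, of 2102 bases, held 0.732 and 0.586 of the counts of the longer one, of 7169 bases, in the cortex and hippocampus 1 h controls. At 6 h it held 0.332 and 0.103 in the controls and 0.291 and 0.412 in the conditioned libraries. For Kcnc1 the same ratio stayed between 0.550 and 0.671 in all libraries but hippocampus control 6 h, where it was 0.338. Reads common to both transcripts may be counted in both rows, so these ratios are not isoform shares. The shorter row had 56.1% G and C against 49.1% in the longer for Kcnd3, and 54.3% against 57.4% for Kcnc1. The part of base composition in these ratios was not tested.

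Channels work with partners, and 26 symbols for auxiliary subunits, anchors and trafficking factors were listed, of which 25 were in the table and 20 were tested. Between tissues 1 of the 20 was called, against 3.72% of all rows: Dpp10, a Kv4 auxiliary subunit, was lower in hippocampus (-1.79). Over time 4 of the 20 were called, against 23.2% of all rows. Kcnip4, a calcium sensor bound to Kv4, rose by 2.16, Lgi1, a secreted protein of the Kv1 complex, by 1.44, and Dlg2, a scaffold that clusters Kv1, by 1.42, all on the log2 scale. The Kv1 beta subunit Kcnab2 fell, at -1.60. With the GC and length trend removed, Lgi1, Dlg2 and Kcnab2 were no longer called over time, Kcnip4 still was, and Kcnip3, a relative of Kcnip4, was called as well (7.34% of rows). Without hippocampus control 6 h, the log2 changes over time were 1.26 for Kcnip4, 1.24 for Lgi1, 1.20 for Dlg2 and -1.25 for Kcnab2. For conditioning 0 of 20 were called. The median log2 values of the list were 0.05, 0.50 and -0.01 for tissue, time and conditioning, and the median for time was -0.03 with the trend removed, with 9 genes above 0 and 11 below.

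Other potassium channels were counted in the same way, beside 3.72% of all rows called between tissues and 23.2% over time. Of 9 tested inward rectifiers 2 were called between tissues, Kcnj12 (-1.75) and Kcnj4 (-1.59), both lower in hippocampus, and 1 over time, Kcnj2 (1.38). Of 6 tested calcium- or sodium-activated channels, Kcnt1, the sodium-activated Slack channel, was lower in hippocampus (-1.84), and Kcnt2 (1.47) and the BK channel Kcnma1 (1.20) rose over time. Of 5 tested two-pore leak channels none was called in any comparison. With the trend removed (7.34% of rows called over time), Kcnj2 and Kcnt2 lost their calls over time and Kcnma1 kept its call. Kcnj3 and the two-pore channel Kcnk9 were then called lower at 6 h. Without hippocampus control 6 h no gene of these 3 lists was called over time, while Kcnj12, Kcnj4 and Kcnt1 were still called between tissues. Conditioning gave 0 calls in each list.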

How the data were processed

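The deposited table gives raw counts for RefSeq transcripts in all 8 libraries; the authors had not scaled them. Per the labels' protocols, ribosomal RNA was depleted and cDNA was made, amplified isothermally (SPIA) and amplified by PCR. The submitters' processing notes name build mm9 and, without roles, the tools TopHat 1.3.1 and CASAVA 1.7, with limma 3.12.3 and edgeR 2.612. No source used here names a counting program or says whether strand was used. Identifiers were matched to symbols through RefSeq and GENCODE M21 tables of GRCm38 (97.9% of rows), which also gave transcript lengths and GC content, so these are not mm9 models. No column was left without a sample.

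Counts were fitted with edgeR 4.0.16 in R 4.3.3 (robust quasi-likelihood test, TMM scaling, filterByExpr) on 6 libraries, with condition in 3 levels and tissue as terms and 2 residual degrees of freedom. An SE is the absolute log2 change divided by the square root of the test's F, which draws on variances shared across genes. Benjamini-Hochberg adjustment ran over all rows tested, and an adjusted p under 0.05 was called. Alternatives used DESeq2 1.42.0, other scalings, no filter, all 8 libraries, summed rows, splines for GC content and length, and each library left out. Ratios of 1 library to another carry exact binomial 95% intervals from members with at least 10 counts. The fit was also run on simulated counts with a fixed dispersion and no trend with GC content or length. These libraries do show such a trend, so that run lends no support to the calls. Members were named by rule: the highest per kilobase in each subfamily, each member called (up to 12 per comparison) and each with under 10 counts. A few members that this rule or a count would name are not reported here. Other members were named after their values were seen. The members and lists were chosen with earlier results of these data known.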

Additional observations from a re-analysis of the deposited data

Results flagged for a closer look

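A few members moved in opposite directions in the 2 tissues, with counting intervals that excluded 0 on both sides. Each value is a log2 ratio of 1 library to another, and the difference between tissues was not tested. Such opposite intervals were found for 4 of 31 members at 6 h after training, against 7.98% of 11432 genes, and for 1 of 31 members over time, against 2.94% of 11493 genes. Between conditioned and control libraries at 6 h, Kcna2, a Kv1 subunit of axons, was at 0.41 in cortex and -0.89 in hippocampus, and the silent subunit Kcnv1 at 0.39 and -1.34. The Kv4 subunit Kcnd2 was at 0.28 in cortex and -0.53 in hippocampus, and the ERG channel Kcnh7 at 0.26 and -0.64. Between the 6 h and the 1 h controls, Kcna2 was at -0.20 in cortex and 1.05 in hippocampus. All 5 hippocampal ratios use the hippocampus control 6 h library, which was the smallest and held 8.01% of its counts in Kif5c, and its part in these values was not tested.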

How the results depend on the processing

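For tissue, all 8 libraries as labelled, with the conditioned 1 h pair taken as 2 samples, gave 0 members called (0.0% of rows), removal of the GC and length trend gave 10, and that removal without hippocampus control 6 h, chosen after seeing the data, gave 13 (8.3%). Leaving out 1 library at a time gave 2 to 8 (1.2% to 5.2%). The other settings run, which were RLE and upper-quartile scaling, no filter, DESeq2 and summed rows, gave 4 to 7 (2.65% to 4.31%).

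For time, all 8 libraries gave 16 (44.7% of rows), the conditioned 1 h pair summed gave 15 (37.7%), upper-quartile factors gave 2, trend removal gave 1 and trend removal without hippocampus control 6 h gave 0 (2.37%; edgeR). Leaving out 1 library gave 0 to 12 (0.0% to 42.1%). Kcnh7 changed sign, to -0.52 (SE 0.32, not called) with the trend removed and to -0.46 when hippocampus control 6 h was also left out. The cause of these shifts was not tested.

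For conditioning, leaving out 1 library gave 0 to 2 (0.0% to 12.5%) and each other alternative gave 0. The fit compared tissues within each condition and conditions within each tissue. No pairing by animal was possible because each group held 1 library and the labels give neither animals nor replicate numbers. With 1 library per combination and 2 residual degrees of freedom, low-count members such as Kcnh4 and Kcng2 had SE of 0.62 and 0.45. These values also draw on variances shared across genes.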
